A study of Homo sapiens with 12 samples.

Results

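The genes of MHC class I antigen presentation and the gene of PD-L1 were followed in WM-266-4 cells, an established human melanoma line, that carried different forms of the receptor tyrosine kinase TYRO3. The 9 genes were taken by name, out of 35579 genes to which the transcripts of the primary genome assembly could be summed: HLA-B and HLA-C, B2M, TAP1, TAP2, TAPBP, PSMB8, PSMB9 and CD274. MHC class I molecules show peptides from inside the cell to cytotoxic T cells. The immunoproteasome, which holds the subunits encoded by PSMB8 and PSMB9 in place of constitutive ones, cuts proteins into peptides, and the transporter made of TAP1 and TAP2 moves the peptides into the endoplasmic reticulum. There tapasin, the product of TAPBP, helps to load them onto a heavy chain, such as HLA-B or HLA-C, bound to beta-2 microglobulin, the product of B2M. PD-L1, the product of CD274, binds PD-1 on T cells and restrains them. Many of these genes are known targets of interferon signaling, and loss of class I presentation and the display of PD-L1 are both known ways in which melanoma cells evade T cells.

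All cells carried a stable lentiviral knock-down of TYRO3, were grown with puromycin, and were starved of serum overnight after transfection with jetPRIME. The plasmid encoded wild-type TYRO3 (WT), a variant resistant to gamma-secretase with the substitution I449A (ΔGS, dGS in the plots), a variant resistant to ADAM proteases with the substitutions P408A, L409P and G419P (ΔADAM, dADAM in the plots), or, in the control group, GFP. The sample labels name a GFP plasmid for this group and the paper speaks of a plasmid without insert. Each of 3 experiments gave 1 library per group, so that the 4 groups have 3 libraries each. The model is a single cell line with receptor from a plasmid, and TYRO3 itself was at 49.7 ± 3.53 CPM (estimated counts scaled to the library total, SD, n = 3) in the GFP libraries and between 1165 and 3604 CPM in the 9 others.

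Library totals of estimated counts lay between 4008293, in the GFP library of experiment 1, and 38184838, with a median of 23302002 and a second lowest total of 18365999. Of 7 melanocyte markers all 7 were detected, and their summed level was between 2117 and 2547 CPM in the GFP libraries and between 1265 and 2431 with WT, 1304 and 2112 with ΔGS and 1309 and 1997 with ΔADAM TYRO3. Of 8 leukocyte markers, 5 were under 0.5 CPM in all 12 libraries, PTPRC and CD3E among them, and the summed level of the list was between 1.45 and 2.20 CPM with GFP, 1.57 and 2.39 with WT, 2.14 and 3.15 with ΔGS and 1.74 and 2.68 with ΔADAM TYRO3. Their part in the results below was not tested. In RNA from a whole culture, fewer cells that express a gene and less of its RNA per cell cannot be told apart.

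The genes lie on 3 chromosomes (GRCh38). HLA-B and HLA-C are in the class I region of chromosome 6, on the minus strand, with HLA-C from 31268749 to 31272130. TAP2 (32821833 to 32838780), PSMB8 (32840717 to 32844703), TAP1 (32845209 to 32853978) and PSMB9 (32844136 to 32859585) lie together in the class II region of the same chromosome, and TAPBP lies beyond them from 33299694 to 33314387. B2M is on chromosome 15 from 44711487 to 44718877 and CD274 on chromosome 9 from 5450503 to 5470566. PSMB9 is on the plus strand, and its annotated span holds all of TAP1 and overlaps an end of PSMB8 on the other strand. The annotated span of HLA-B, from 31269491 to 31357188, overlaps HLA-C. The RefSeq starts of TAP1 and PSMB9 are 488 bases apart.

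Promoter sequences are shown because many of these genes are known interferon targets, and they hold matches to motifs of interferon-responsive genes, also in TAPBP, which was called in no comparison. The windows from RefSeq (GRCh38.p14) run from 250 bases before to 50 bases after a transcript's start, and 11 windows matched the 9 genes. The core of the interferon-stimulated response element, searched as GAAANNGAA on both strands, was found in a window of 6 of the 9 genes (TAP1, TAP2, TAPBP, PSMB8, B2M and CD274). Counted by window, it was in 6 of their 11 windows, beside 8.11% of 35116 windows of all genes. The shifted form GAANNGAAA, added after the windows had been read and able to overlap the first, was found for 5 of the 9 (HLA-B, HLA-C, TAP2, PSMB8 and CD274). It was in 5 of the 11 windows, beside 7.66% of all windows. In the stretches of 60 bases below, written 5′ to 3′ on the strand of the gene, capitals mark these matches.
TAP1, chr6:32853801-32853860, minus strand: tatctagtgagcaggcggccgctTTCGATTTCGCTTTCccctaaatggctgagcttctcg
TAP2, chr6:32838766-32838825, minus strand: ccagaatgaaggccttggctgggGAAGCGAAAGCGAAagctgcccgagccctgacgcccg
TAPBP, chr6:33314079-33314138, minus strand: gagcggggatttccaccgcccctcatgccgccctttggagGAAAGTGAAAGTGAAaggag
CD274, chr9:5450315-5450374, plus strand: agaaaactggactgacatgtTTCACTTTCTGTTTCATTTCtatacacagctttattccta
B2M, chr15:44711350-44711409, plus strand: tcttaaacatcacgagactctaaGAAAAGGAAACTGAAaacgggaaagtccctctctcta
HLA-B, chr6:31357301-31357360, minus strand: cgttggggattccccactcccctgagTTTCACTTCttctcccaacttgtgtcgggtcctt
HLA-C, chr6:31272210-31272269, minus strand: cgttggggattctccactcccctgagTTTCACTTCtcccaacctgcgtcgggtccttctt

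The stretch of TAP1 lies between the starts of TAP1 and PSMB9, outside the window of PSMB9, in which neither form was found. In PSMB8 the match to the first form spans the start of its transcript and is not printed. The gamma-activated site, searched as TTCNNNGAA, was found in a window of TAP1, PSMB8 and CD274 (3 of the 11 windows, beside 7.66% of all windows). The NF-kB consensus was found in those of HLA-B, HLA-C, TAP1, TAPBP and B2M (5 of the 11 windows, beside 11.3% of all windows). These matches describe letters and do not show binding.

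Among the heavy chains, HLA-B rose with each form of TYRO3, whereas HLA-C was higher by a smaller amount that was not called. Calls required more than 1.5-fold and an adjusted p not above 0.05 over the 15098 genes tested with edgeR. In experiment 1, HLA-B was at 3.13 CPM in the GFP library and at 53.5, 51.7 and 59.4 CPM with WT, ΔGS and ΔADAM TYRO3. In experiment 2 it was at 13.9 CPM with GFP and at 55.6, 48.3 and 59.7, and in experiment 3 at 5.25 CPM with GFP and at 10.2, 15.5 and 10.1, in the same order. Every TYRO3 library was thus above the GFP library of its own experiment, but the GFP library of experiment 2 lay above the WT and ΔADAM libraries of experiment 3. On the log2 scale edgeR put HLA-B higher than GFP by 1.90 for WT (standard error 0.35, adjusted p = 0.0207), by 1.99 for ΔGS (adjusted p = 0.011) and by 1.98 for ΔADAM (adjusted p = 0.00959). The call with WT TYRO3 was lost without the WT library of experiment 1 (log2 fold change 1.80, adjusted p = 0.1019 from edgeR), the WT library of experiment 2 (1.83, adjusted p = 0.1012) or the GFP library of experiment 2 (1.92, adjusted p = 0.06437). It was also lost in experiments 2 and 3 alone (1.54, adjusted p = 0.1068 from edgeR) and with only the groups compared (1.98, adjusted p = 0.1095). The GFP value of experiment 1 rests on an estimated count of 12.5, and without that library the log2 fold changes were 1.57, 1.66 and 1.65. HLA-C was more abundant, at 158, 234 and 193 CPM in the GFP libraries of experiments 1, 2 and 3. It was at 275, 332 and 197 CPM with WT TYRO3, at 262, 319 and 259 with ΔGS and at 275, 356 and 194 with ΔADAM TYRO3. In experiment 3 the WT and ΔADAM libraries were thus nearly at the level of the GFP library. The log2 fold changes of HLA-C were 0.39 (95% interval 0.07 to 0.71, adjusted p = 0.153 from edgeR), 0.48 (0.17 to 0.80, adjusted p = 0.0619) and 0.41 (0.09 to 0.73, adjusted p = 0.097). Of the words of 31 bases in HLA-B-249, the transcript with most HLA-B counts, 10.8% also occur in HLA-C-201. Reads from such stretches are split between genes by kallisto, so the division between HLA-B, HLA-C and their paralogs is uncertain. These are words of reference transcripts, and their share does not give the size of that uncertainty.

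B2M, the partner shared by all class I heavy chains, was at 216, 293 and 269 CPM in the GFP libraries of experiments 1, 2 and 3. It was at 362, 412 and 290 CPM with WT TYRO3, at 392, 447 and 362 with ΔGS and at 373, 463 and 318 with ΔADAM TYRO3. All 9 TYRO3 libraries were above the GFP library of their experiment, and the WT library of experiment 3 lay below the GFP library of experiment 2. The log2 fold changes were 0.39 (adjusted p = 0.0735 from edgeR), 0.58 (adjusted p = 0.0141) and 0.50 (adjusted p = 0.022) with WT, ΔGS and ΔADAM TYRO3. The latter pair passed the limit on the adjusted p but not the limit on the fold change, which ΔGS missed narrowly at 1.4985, so B2M was not called. It was called with ΔGS TYRO3 when any of 6 single libraries was left out, with log2 fold changes from 0.59 to 0.74, with no filter on low counts (0.59), with at least 10 counts in every library (0.60) or when only the groups compared were fitted (0.60), and with ΔADAM TYRO3 without the GFP library of experiment 3 (0.65).

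**Figure D1:**
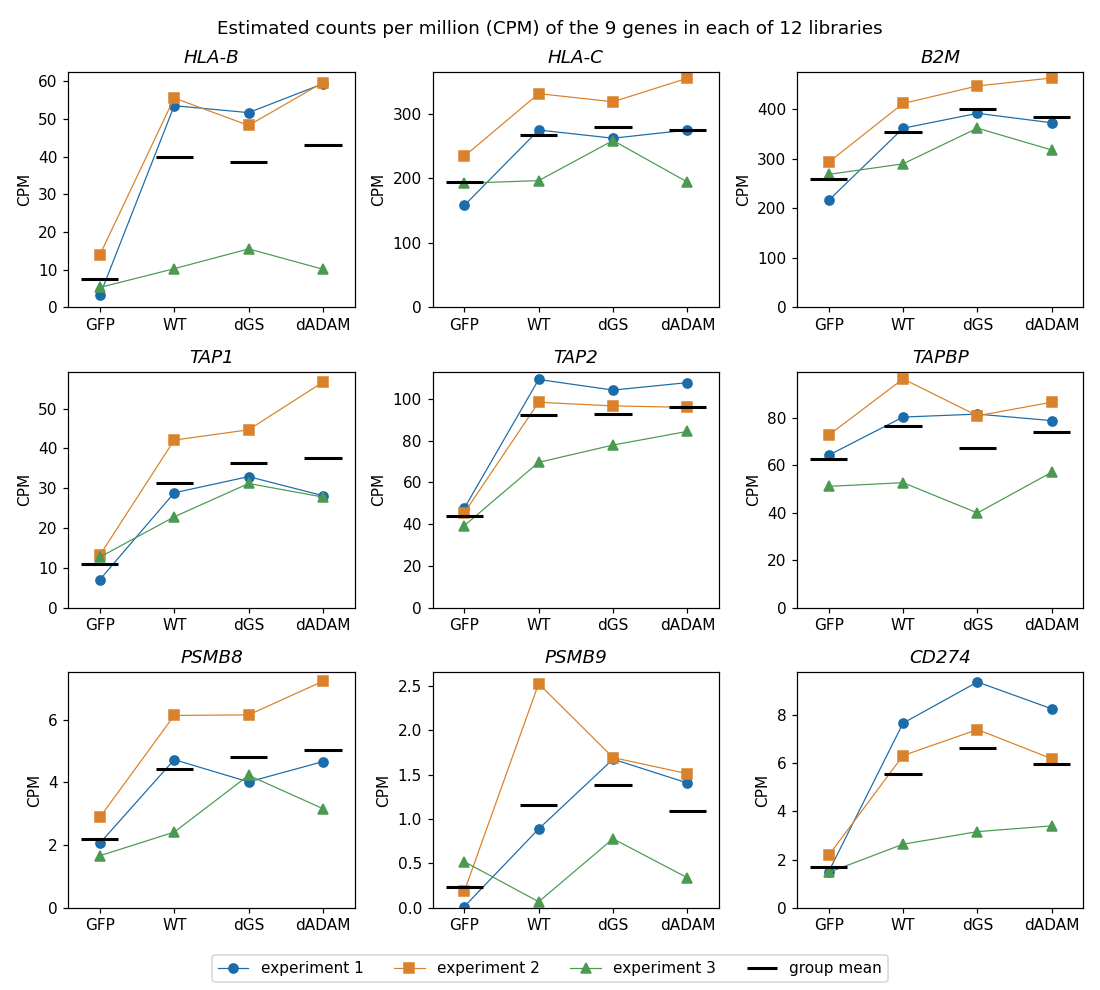
CPM of each gene in the 12 libraries, by group on the x axis. Points are libraries, lines join the libraries of an experiment and black bars are the means of 3 libraries. TAP1, TAP2 and CD274 have all 9 TYRO3 libraries above all 3 GFP libraries, and for HLA-B and CD274 the libraries of experiment 3 lie below those of experiments 1 and 2 in each TYRO3 group.

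Both subunits of the peptide transporter rose with each form of TYRO3. TAP1 was at 6.99, 13.2 and 12.7 CPM in the GFP libraries of experiments 1, 2 and 3. It was at 28.8, 42.1 and 22.8 CPM with WT TYRO3, at 32.9, 44.7 and 31.2 with ΔGS and at 28.1, 56.7 and 27.8 with ΔADAM TYRO3. The lowest TYRO3 library was therefore above the highest GFP library. Its log2 fold changes were 1.38 (standard error 0.20, adjusted p = 0.00699 from edgeR), 1.63 (adjusted p = 0.00202) and 1.60 (adjusted p = 0.00233) with WT, ΔGS and ΔADAM TYRO3. The TAP1 call with WT TYRO3 was lost in experiments 2 and 3 alone (1.24, adjusted p = 0.09615 from edgeR) and with only the groups compared (1.40, adjusted p = 0.07823). TAP2 was at 47.6, 45.4 and 39.3 CPM in the GFP libraries, at 109, 98.5 and 69.7 with WT, at 104, 96.7 and 78.0 with ΔGS and at 108, 96.05 and 84.5 with ΔADAM TYRO3. It had the smallest spread between experiments of the genes that were called, and its groups did not overlap either. Its log2 fold changes were 1.00 (standard error 0.08, adjusted p = 0.000568 from edgeR), 1.03 (adjusted p = 0.000283) and 1.06 (adjusted p = 0.000241). No change of tapasin was called. TAPBP was at 64.3, 72.8 and 51.2 CPM in the GFP libraries, and between 39.9 and 96.6 CPM in the 9 TYRO3 libraries, of which the ΔGS library of experiment 3 was below the GFP library of its experiment. Its log2 fold changes were 0.21 (95% interval -0.05 to 0.46, adjusted p = 0.336 from edgeR), 0.01 (-0.24 to 0.27, adjusted p = 0.97) and 0.17 (-0.08 to 0.42, adjusted p = 0.371).

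Of the immunoproteasome subunits, PSMB8 rose with each form of TYRO3, while PSMB9 was not called on the counts of the primary assembly. PSMB8 was at 2.06, 2.89 and 1.66 CPM in the GFP libraries of experiments 1, 2 and 3, at 4.73, 6.14 and 2.41 with WT, at 4.02, 6.16 and 4.23 with ΔGS and at 4.67, 7.23 and 3.16 with ΔADAM TYRO3. The WT library of experiment 3 lay below the GFP library of experiment 2, whereas the ΔGS and ΔADAM groups did not overlap the GFP group. Its log2 fold changes were 0.94 (standard error 0.23, adjusted p = 0.0478 from edgeR), 1.12 (adjusted p = 0.0165) and 1.11 (adjusted p = 0.0151). The call with WT TYRO3 lies close to the limit: it was lost when any of 10 of the 12 libraries was left out, with a log2 fold change of 0.81 and an adjusted p of 0.2006 without the WT library of experiment 1. The calls with the variants were also lost without the GFP library of experiment 2 (adjusted p = 0.06378 for ΔGS and 0.06181 for ΔADAM from edgeR) and in experiments 2 and 3 alone (0.06021 and 0.07994), and that with ΔADAM TYRO3 without its library of experiment 1 (0.05566). PSMB9 was at 0.0131, 0.184 and 0.520 CPM in the GFP libraries, and the first of these values is less than 1 estimated count. With TYRO3 it was between 0.0681 and 2.52 CPM, and in experiment 3 the WT and ΔADAM libraries were below the GFP library. The log2 fold changes of PSMB9 were 1.57 (95% interval -0.44 to 3.57, adjusted p = 0.351 from edgeR), 2.07 (0.13 to 4.01, adjusted p = 0.162) and 1.61 (-0.36 to 3.58, adjusted p = 0.273). Without the GFP library of experiment 3, PSMB9 was called with ΔGS TYRO3 (3.84, adjusted p = 0.03762 from edgeR).

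CD274, which encodes PD-L1, rose with each form of TYRO3 from a low level. It was at 1.497, 2.17 and 1.47 CPM in the GFP libraries of experiments 1, 2 and 3. It was at 7.66, 6.32 and 2.64 CPM with WT TYRO3, at 9.37, 7.39 and 3.16 with ΔGS and at 8.25, 6.18 and 3.40 with ΔADAM TYRO3. The groups did not overlap, and the TYRO3 libraries of experiment 3 were the 3 lowest of the 9. The log2 fold changes were 1.38 (standard error 0.22, adjusted p = 0.0113 from edgeR), 1.64 (adjusted p = 0.00297) and 1.503 (adjusted p = 0.00478) with WT, ΔGS and ΔADAM TYRO3. The GFP value of experiment 1 rests on 6 estimated counts, and without that library the values were 1.23 (WT), 1.49 (ΔGS) and 1.35 (ΔADAM). With WT TYRO3 the call was lost without the WT library of experiment 1 (log2 fold change 1.34, adjusted p = 0.05814 from edgeR) or of experiment 2 (1.31, adjusted p = 0.07237). It was also lost in experiments 2 and 3 alone (1.22, adjusted p = 0.1313 from edgeR) and with only the groups compared (1.42, adjusted p = 0.108). With limma on log2 TPM the adjusted p was 0.1116 (pseudocount 1) and 0.1036 (pseudocount 0.1). Where at least 10 counts were required in every library, CD274 was not tested. The transcript CD274-202, a protein-coding transcript of 7 exons, took a median of 90.5% of the counts of the gene over the 12 libraries, and no transcript outside the primary assembly carries this symbol.

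In each comparison with GFP, 5 of the 9 genes were called higher and 0 lower, and they were HLA-B, TAP1, TAP2, PSMB8 and CD274 every time. Of all genes tested, 1.66% were called higher with WT, 2.81% with ΔGS and 3.15% with ΔADAM TYRO3, and 1.53% in all 3 comparisons, while 0.689%, 1.88% and 2.05% were called lower. The comparisons share the GFP libraries, so the calls are not independent. The 9 genes were also chosen with earlier results of these data known, so the shares over all genes are given as description only. The median log2 fold change of the 9 genes was 1.00 with WT, 1.12 with ΔGS and 1.11 with ΔADAM TYRO3, and that of all genes between -0.003 and 0.007. For 7 of the 9 genes, all but TAPBP and PSMB9, every TYRO3 library was above the GFP library of its experiment, as for 16.3% of all genes tested. Taken by form, 8 of the 9 genes were higher than GFP in all 3 experiments with WT (29.7% of all genes), with ΔGS (27.1%) and with ΔADAM TYRO3 (30.6%). For TAP1, TAP2 and CD274 the lowest of the 9 TYRO3 libraries was above the highest GFP library, as for 6.55% of all genes. By form, the groups did not overlap for 3 of the 9 with WT (13.4% of all genes), 8 with ΔGS (13.4%) and 5 with ΔADAM TYRO3 (15.8%). These calls need the comparison within experiments. When the replicate block was replaced by a single term that separates experiment 1 from the others, TAP2 alone was called with WT TYRO3 (adjusted p = 0.0399 from edgeR), and TAP1 and TAP2 with ΔGS (adjusted p = 0.0471 and 0.0292) and with ΔADAM TYRO3 (adjusted p = 0.0371 and 0.0183), where 0.0397%, 0.278% and 0.616% of all genes were called higher. The log2 fold changes of HLA-B were then 2.06, 2.01 and 2.16 with a standard error of 0.79 each, and those of CD274 were 1.41, 1.67 and 1.503 with a standard error of 0.42.

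**Figure D2:**
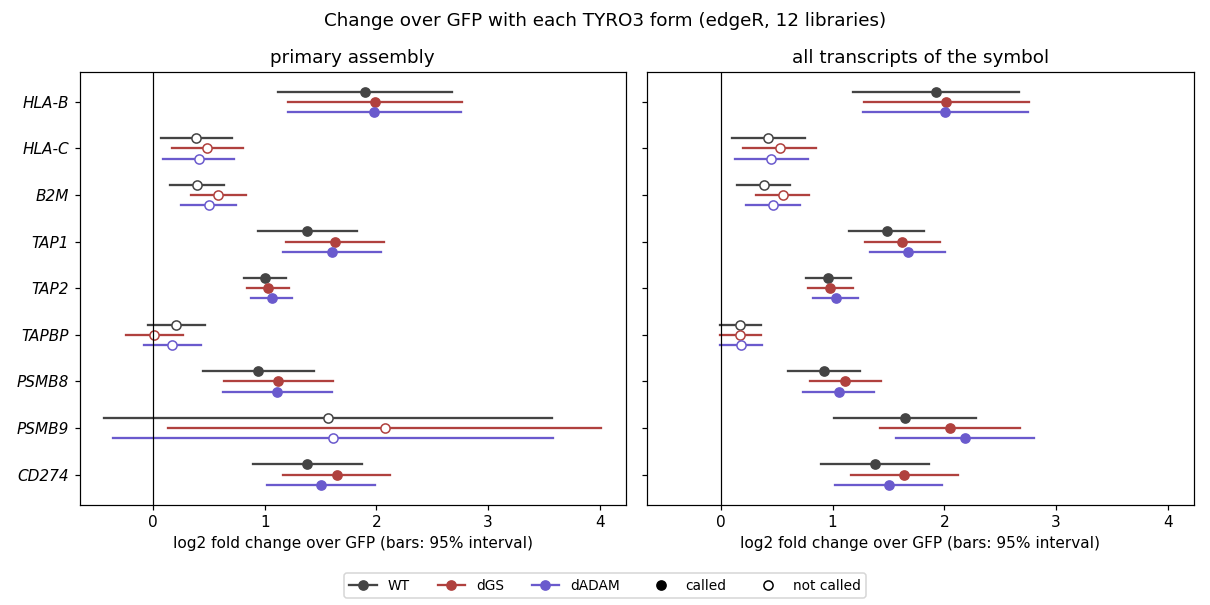
Log2 fold change over GFP of each gene with WT, dGS and dADAM TYRO3 (x axis), from edgeR on counts of the primary assembly (left) and of all transcripts with the gene's symbol (right). Bars are 95% intervals and filled points are calls. PSMB9 is called in the right panel only, with log2 fold changes of 1.65, 2.05 and 2.19, and TAPBP is called in neither.

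The size of the change differed between the experiments. Over the 9 genes, the median log2 ratio to the GFP library of the same experiment was 1.20, 1.13 and 1.18 with WT, ΔGS and ΔADAM TYRO3 in experiment 1 and 1.12, 1.09 and 1.32 in experiment 2. In experiment 3 it was 0.53, 0.99 and 0.91, while the median of all genes tested was between 0.01 and 0.06 in each of these 9 ratios. For HLA-B the log2 ratio was 4.04, 3.99 and 4.19 in experiment 1, 1.999, 1.80 and 2.10 in experiment 2 and 0.96, 1.56 and 0.94 in experiment 3. For CD274 it was 2.25, 2.53 and 2.35 in experiment 1, 1.54, 1.76 and 1.504 in experiment 2 and 0.84, 1.09 and 1.20 in experiment 3. TAP2 differed least between experiments among the genes called, with ratios from 0.83 to 1.20. The level of TYRO3 was from 3009 to 3604 CPM in experiment 1, 1207 to 1765 in experiment 2 and 1165 to 1567 in experiment 3, and its part in these ratios was not tested. For HLA-B the GFP library was at 3.13 CPM in experiment 1 (an estimated count of 12.5) and at 13.9 in experiment 2. The TYRO3 libraries of both experiments were between 48.3 and 59.7 CPM. CD274 in the TYRO3 libraries was between 7.66 and 9.37 CPM in experiment 1 and between 6.18 and 7.39 in experiment 2. With 1 library per group in each experiment, the differences between experiments have no replicate check. Without the GFP library of experiment 3, 8 of the 9 genes were called with ΔGS TYRO3, all but TAPBP, and 6 with ΔADAM TYRO3.

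**Figure D3:**
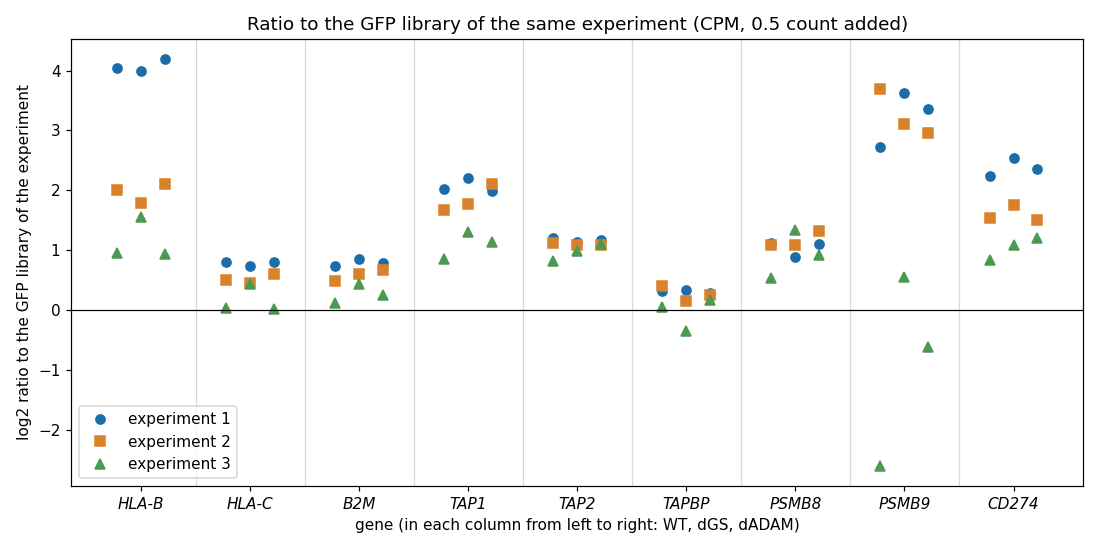
Log2 ratio of CPM, with 0.5 count added, to the GFP library of the same experiment (y axis) for each gene. In each column the points stand from left to right for WT, dGS and dADAM TYRO3, with 1 library per point. The ratios of HLA-B are near 4 in experiment 1 and between 0.94 and 1.56 in experiment 3, whereas those of TAP2 lie between 0.83 and 1.20. In experiment 1 the GFP library had an estimated count of 12.5 for HLA-B.

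Whether cleavage of the receptor bears on these genes was asked by comparing the forms of TYRO3 with each other. No gene of the 9 was called between WT TYRO3 and the mean of the variants, nor between ΔGS and ΔADAM TYRO3, and 0 of the 9 had an unadjusted p under 0.05 in either comparison by edgeR, DESeq2 or limma. Over all genes, edgeR called 0 in each comparison, with 237 and 216 genes at an unadjusted p under 0.05, limma called 0 and DESeq2 called 5 and 1. The log2 difference of WT TYRO3 from the mean of the variants was -0.08 for HLA-B (95% interval -0.67 to 0.50), -0.23 for TAP1 (-0.58 to 0.11), -0.04 for TAP2 (-0.20 to 0.11), -0.18 for PSMB8 (-0.56 to 0.21) and -0.19 for CD274 (-0.56 to 0.17). It was below 0 for 8 of the 9 genes, with a median of -0.15 beside -0.002 over all genes. The values of these genes run together, and the shared sign depends on the WT library of experiment 3. Without that library the difference was above 0 for HLA-B (0.0766), HLA-C (0.0551), TAP2 (0.0523), PSMB8 (0.0088) and PSMB9 (0.2279). It stayed below 0 for B2M (-0.0625), TAP1 (-0.101) and CD274 (-0.0977). Between ΔGS and ΔADAM TYRO3 the log2 difference was 0.01 for HLA-B (-0.66 to 0.67), 0.02 for TAP1 (-0.36 to 0.41), -0.03 for TAP2 (-0.21 to 0.14), 0.01 for PSMB8 (-0.42 to 0.43) and 0.14 for CD274 (-0.27 to 0.55). The intervals of HLA-B reach past the fold limit of 1.5 in both comparisons, and those of TAP2 were the narrowest. TYRO3 itself differed by 0.07 (-0.35 to 0.50) and 0.29 (-0.20 to 0.78) in the same comparisons.

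Per length, in TPM, the order of the genes in the GFP libraries was B2M with 763 ± 122 TPM, HLA-C with 213 ± 58.3, TAPBP with 30.6 ± 6.91, TAP2 with 16.1 ± 2.88, HLA-B with 8.79 ± 6.94, TAP1 with 8.57 ± 3.07, PSMB8 with 2.98 ± 1.02, CD274 with 1.64 ± 0.720 and PSMB9 with 0.396 ± 0.390 (SD, n = 3 for each). HLA-B and TAP1 did not differ beyond their spread in this order. The ranges of TAP2 and HLA-B, of HLA-B and PSMB8 and of PSMB8 and CD274 overlapped as well. With TYRO3, HLA-B was between 58.0 and 69.9 TPM in the libraries of experiments 1 and 2, above TAP2 and TAPBP on these counts, and between 11.8 and 16.6 TPM in experiment 3, below both except for TAPBP with ΔGS TYRO3. HLA-C stayed above HLA-B in all 12 libraries. With all transcripts of a symbol the order in the GFP libraries differed: PSMB8 was at 19.4 ± 6.91 TPM and ranked 5, above TAP1 with 14.1 ± 5.51 and HLA-B with 9.90 ± 7.18, and PSMB9 with 2.67 ± 1.63 ranked above CD274 (SD, n = 3 for each). In the TYRO3 libraries of experiments 1 and 2, TAPBP was then between 109.7 and 128 TPM and HLA-B between 64.3 and 79.4, so that HLA-B was below TAPBP.

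These levels leave out a large part of the reads of some genes, because the transcript set also holds transcripts from outside the primary assembly, and kallisto divides reads among transcripts that share a sequence. The share of the counts with a gene's symbol that lay outside the primary assembly was between 80.8% and 86.5% for PSMB8, between 49.5% and 98.7% for PSMB9, between 62.5% and 75.8% for TAPBP and between 36.6% and 54.6% for TAP1. It was between 20.5% and 24.2% for B2M, between 2.87% and 17.9% for HLA-B, between 7.19% and 12.9% for HLA-C and between 6.16% and 18.02% for TAP2. PSMB8-202, the leading transcript of PSMB8, held a median of 12.7% of the counts of its symbol, and each of 5 transcripts outside the primary assembly held the same 12.7%. For TAP1 the protein-coding transcript and 5 transcripts outside took 9.30% each, and in the primary assembly a processed transcript of 11 exons led with a median of 75.0% of the counts.

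With the transcripts outside the primary assembly added, an alternative chosen after seeing the data, PSMB9 was at 1.01, 1.999 and 1.03 CPM in the GFP libraries of experiments 1, 2 and 3. It was at 4.58, 7.55 and 2.23 CPM with WT TYRO3, at 6.13, 7.08 and 4.27 with ΔGS and at 6.41, 12.2 and 3.01 with ΔADAM TYRO3, so that the groups no longer overlapped. PSMB9 was then called in all 3 comparisons, with log2 fold changes of 1.65 (standard error 0.29, adjusted p = 0.0142 from edgeR), 2.05 (adjusted p = 0.00324) and 2.19 (adjusted p = 0.00223), and 6 of the 9 genes were called higher, beside 1.79%, 2.92% and 3.26% of all genes (called lower: 0 of the 9, and 0.85%, 1.92% and 2.04% of all genes). PSMB8 was at 10.7, 17.5 and 11.01 CPM in the GFP libraries on this scale and between 17.8 and 43.1 CPM with TYRO3, and its adjusted p with WT TYRO3 was 0.00905. TAPBP was at 183 ± 32.9 CPM in the GFP libraries (SD, n = 3) and had log2 fold changes of 0.17, 0.17 and 0.18, which were not called. For HLA-C with ΔGS TYRO3 the adjusted p was 0.0488 at a fold of 1.44, under the limit. PSMB9 was lower with WT TYRO3 than with the variants by a log2 difference of -0.47 (95% interval -0.93 to -0.02), and its adjusted p was 1.

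**Figure D4:**
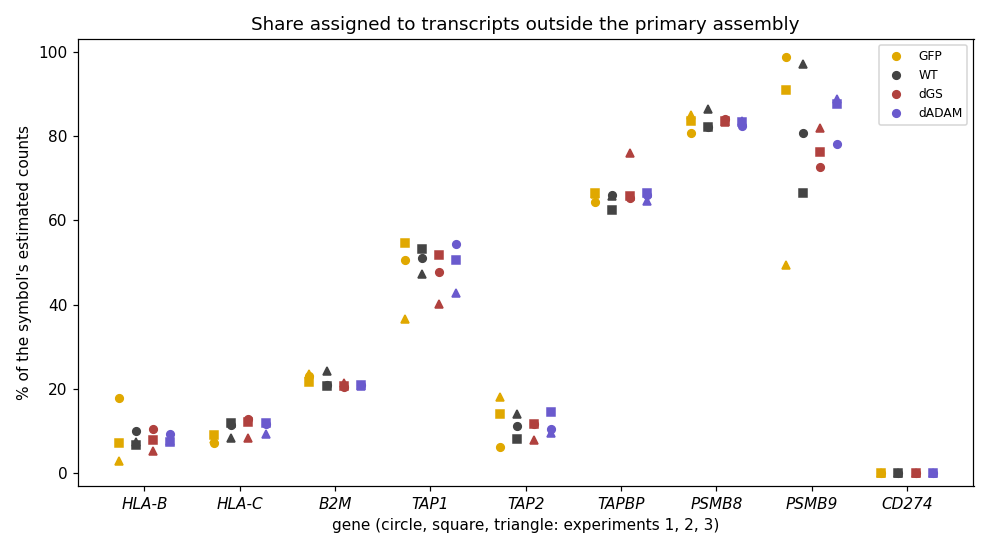
Share of the estimated counts with a gene's symbol that were assigned to transcripts outside the primary assembly (y axis, %), for each gene and library. Colors are groups and shapes are experiments. The share is over 80% for PSMB8 in every library, ranges from 49.5% to 98.7% for PSMB9 and is 0 for CD274.

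Of the other class I heavy chains, 1 of 3 tested was called higher with ΔGS and with ΔADAM TYRO3, and 0 with WT (2 at an unadjusted p under 0.05). Of all 15098 genes tested, 3241, 4022 and 4136 had an unadjusted p under 0.05 from edgeR with WT, ΔGS and ΔADAM TYRO3. The counts at this limit in the lists here and below are to be read beside these numbers. Levels and tests of the lists use counts of the primary assembly alone. Shares outside it were not examined for the genes of the lists, so a low level there does not show absence. HLA-F, a nonclassical heavy chain, was called with ΔGS (2.05 on the log2 scale, adjusted p = 0.0181 from edgeR) and ΔADAM (1.94, adjusted p = 0.020), and stood at 1.53 for WT (adjusted p = 0.073). Its level was low, at 0.116, 0.931 and 0.564 CPM in the GFP libraries of experiments 1, 2 and 3 and between 1.00 and 4.10 CPM with TYRO3. HLA-E had log2 fold changes of 0.41, 0.55 and 0.32 with WT, ΔGS and ΔADAM TYRO3, none of them called, and HLA-G was not tested at its level of 0.00664 CPM or less. Of 8 other genes of loading and trimming, 1 was called higher in each comparison and 0 lower. It was NLRC5, the transactivator of class I genes, which was at 4.49, 10.5 and 5.25 CPM in the GFP libraries of experiments 1, 2 and 3 and between 10.8 and 48.5 CPM with TYRO3. Its log2 fold changes were 1.47 (adjusted p = 0.00675 from edgeR), 1.62 (adjusted p = 0.00246) and 1.72 (adjusted p = 0.00207) with WT, ΔGS and ΔADAM TYRO3. CALR, a chaperone of the loading complex, had log2 fold changes of -0.42, -0.36 and -0.44, and TAPBPL of 0.27, 0.43 and 0.50, which were not called.

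No other proteasome gene of the lists was called. Of PSMB10, PSME1, PSME2 and POMP, the third subunit specific to the immunoproteasome with its activator and assembly genes, 0 of 4 were called in each comparison (1, 2 and 1 at an unadjusted p under 0.05 from edgeR), and the largest log2 fold change was 0.47, for PSME2 with ΔGS TYRO3 (adjusted p = 0.0277 from edgeR). Of the constitutive subunits PSMB5, PSMB6 and PSMB7, 0 of 3 were called (1 at an unadjusted p under 0.05 each time), with median log2 fold changes of -0.24, -0.07 and -0.18, and of 11 other genes of the 20S core 0 were called (7, 1 and 6 at an unadjusted p under 0.05), with medians of -0.24, -0.08 and -0.20. PSMB2, of the core, had -0.36, -0.31 and -0.37. Of the class II genes, HLA-DRA and HLA-DQB1 were listed at 0 in all 12 libraries on counts of the primary assembly, which does not show that they were absent. By edgeR, 0 of the 6 class II genes tested were called (0, 0 and 1 at an unadjusted p under 0.05). CIITA, the class II transactivator, was between 1.86 and 4.09 CPM with log2 fold changes of -0.06, -0.21 and 0.07.

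Of the other checkpoint genes, 0 of 7 tested were called higher by edgeR, and 2, 4 and 3 had an unadjusted p under 0.05 with WT, ΔGS and ΔADAM TYRO3. PDCD1LG2, which encodes the other ligand of PD-1 and is the neighbor of CD274 on chromosome 9, was between 0 and 0.697 CPM. Its log2 fold changes were 1.49, 1.51 and 1.63 (adjusted p = 0.228, 0.172 and 0.128 from edgeR). CD276 had log2 fold changes of -0.17, -0.25 and -0.30, and CMTM6, whose product stabilizes PD-L1, of -0.05, -0.04 and -0.06. TNFRSF14, which encodes the ligand of BTLA, fell with ΔADAM TYRO3 (-0.85 on the log2 scale, adjusted p = 0.0354 from edgeR) and had -0.75 and -0.64 with WT and ΔGS TYRO3. Of the ligands of the activating receptor NKG2D, 0 of 5 tested were called by edgeR (1, 1 and 2 at an unadjusted p under 0.05), and MICA had log2 fold changes of -0.25, -0.14 and -0.29.

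Regulators of the interferon response were called higher in 6 of 16 cases in each comparison and 0 were called lower. IRF1, STAT2, IRF9, SOCS1 and SOCS3 were among them each time. SOCS1 was low, at 0, 0.629 and 0.237 CPM in the GFP libraries of experiments 1, 2 and 3 and between 0.790 and 1.91 CPM with TYRO3. IRF1, a transcription factor of class I genes and CD274, was at 7.67, 10.5 and 6.61 CPM in the GFP libraries of experiments 1, 2 and 3 and between 15.5 and 36.2 CPM with TYRO3, with log2 fold changes of 1.40, 1.71 and 1.67 (adjusted p = 0.00105, 0.000228 and 0.000241 from edgeR). The 7 genes of interferon receptors and JAK kinases (IFNGR1, IFNGR2, IFNAR1, IFNAR2, JAK1, JAK2 and TYK2) had log2 fold changes between -0.29 and 0.14 and were not called. Over the list the median log2 fold change was 0.24, 0.32 and 0.30. Of 6 NF-kB regulators, 1 was called higher with WT TYRO3 (RELB, log2 fold change 0.66), 3 with ΔGS (RELB 0.77, NFKB2 0.68 and NFKBIA 0.69) and 2 with ΔADAM TYRO3 (RELB 0.64 and NFKB2 0.60), at adjusted p between 0.00839 and 0.0357 from edgeR.

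Of the 7 melanocyte markers, 2 were called lower with ΔGS and with ΔADAM TYRO3 and 0 with WT. With WT, ΔGS and ΔADAM TYRO3, 4, 5 and 7 had an unadjusted p under 0.05 from edgeR. The markers did not all move the same way. TYRP1 was higher, at a mean of 1.06 CPM with GFP and of 1.90, 1.66 and 1.91 CPM with WT, ΔGS and ΔADAM TYRO3, and was not called. MITF, the master regulator of the lineage, and DCT, an enzyme of melanin synthesis, fell with ΔGS (log2 fold changes -1.01 and -1.24, adjusted p = 0.0215 and 0.0299 from edgeR) and with ΔADAM TYRO3 (-1.06 and -1.24, adjusted p = 0.0177 and 0.0286). With WT TYRO3 they had -0.81 and -1.02 and were not called. MITF was lowest in the TYRO3 libraries of experiment 1, between 93.3 and 120 CPM. The ratios of HLA-B and CD274 were highest there, over GFP values that rest on 12.5 and 6 estimated counts. HLA-B itself was between 51.7 and 59.4 CPM in these libraries and between 48.3 and 59.7 in the TYRO3 libraries of experiment 2. For CD274 the levels were between 7.66 and 9.37 and between 6.18 and 7.39 CPM. The part of the MITF shift in the results was not tested. Among the leukocyte markers, ITGAM was called higher with ΔGS TYRO3 (log2 fold change 2.23, adjusted p = 0.0337) at 0.681 CPM or less, and of the 5 fibroblast and endothelial markers tested 0 were called by edgeR (1 at an unadjusted p under 0.05 in each comparison).

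**Figure D5:**
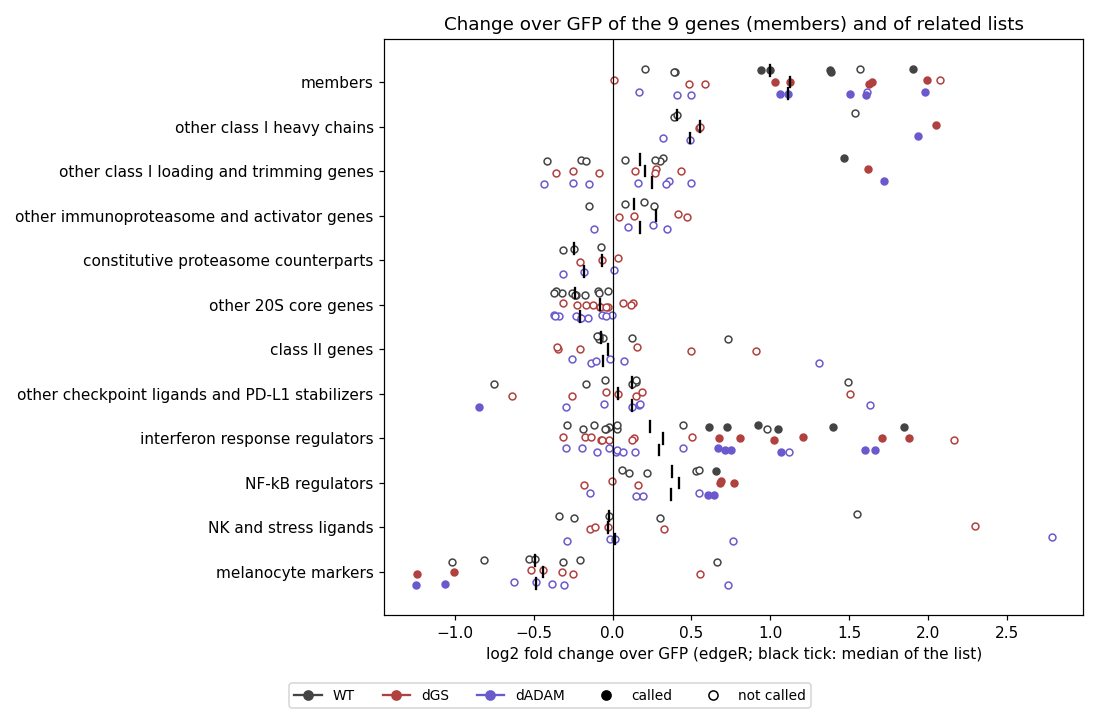
Log2 fold change over GFP (x axis) of the 9 genes, named members in the plot, and of the genes of 11 related lists that were tested with edgeR, by form of TYRO3 (colors). Filled points are calls and black ticks are medians. The medians of the 9 genes lie between 1.00 and 1.12, those of the interferon regulators between 0.24 and 0.32 and those of the 20S core between -0.24 and -0.08.

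Within the members, the log2 CPM of the 9 genes was compared over the 12 libraries after the mean of each experiment was taken off. The correlation of the 36 pairs ranged from 0.22 to 0.97 with a median of 0.90, and the 8 pairs with TAPBP from 0.22 to 0.48. The libraries share their groups and their depth, so that this describes how the values run together and nothing more. Outside the members, the genes most like their mean were INHBA (r = 0.99), CMPK2 (r = 0.98), NMI (r = 0.98), NFKB2 (r = 0.98) and USP18 (r = 0.98), among 15089 genes and over 12 libraries. Those most like CD274 alone were CXCL8 (r = 0.99), OAS2 (r = 0.99) and USP18 (r = 0.99).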

How the data were processed

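RNA of 12 libraries was sequenced from polyadenylated transcripts (TruSeq Stranded mRNA). The authors trimmed the reads and quantified them with kallisto 0.46.0 against Ensembl 96 (GRCh38), as their processing notes and methods state, and the strand setting of kallisto is not given in the sources used here. The deposited values are estimated counts and TPM for each of 188753 transcripts, without the batch correction and DESeq2 normalization that the authors applied later. Groups and experiments were read from the sample titles.

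Transcript identifiers, versions removed, were looked up in GENCODE 29 (169797 matched, 18956 not, of which 15521 have a symbol outside the primary assembly), and estimated counts were summed per gene. Sums were rounded and tested in edgeR 4.0.16 (R 4.3.3) by quasi-likelihood, after TMM and filterByExpr (min.count 10, min.total.count 15), in 1 model of all 12 libraries with the 4 groups and a term for each experiment. P-values were adjusted by Benjamini-Hochberg over all genes of a comparison and are two-sided. They weigh a group difference against its variation from experiment to experiment, after the level of each experiment is taken out by its term. The titles put 1 library of each group in an experiment, which pairs the libraries. Their deviations from the group means had a median correlation of 0.29 within experiments (18 pairs, 0.04 to 0.53) and -0.14 between experiments (36 pairs). CPM divide estimated counts by the library total, and the log2 ratios within experiments add 0.5 count. The plots were made with matplotlib 3.10.9.

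The 9 genes, the related lists and the tests were chosen with earlier results of these data known. Named were the 9 genes, TYRO3, per list up to 3 genes with the smallest p plus any gene called, and the genes most like the 9 genes (5) and CD274 (3). Further genes (HLA-E, HLA-G, the receptor and kinase genes, CIITA, CMTM6, PTPRC, CD3E, HLA-DRA, HLA-DQB1, TYRP1) were named after their values were seen, to account for the lists. Alternatives were DESeq2-type size factors, DESeq2 1.42.0, limma 3.58.1 on log2 values of TPM (pseudocount 1 or 0.1), other filters, other batch terms, fewer experiments or groups, no fold limit, each library left out, and the transcripts outside the primary assembly. The procedure was tested on simulated data. Precision is limited by 3 libraries per group and by the total of 4008293 of a GFP library. Some genes of the related lists enter the counts but are not reported here by name.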

Additional observations from a re-analysis of the deposited data

How the results depend on the processing

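All 5 calls in each comparison with GFP were made with DESeq2-type size factors and with DESeq2, and limma on log2 TPM made 4 with WT and 5 with each variant. The call lost with limma was that of CD274 with WT TYRO3. Requiring at least 10 counts in every library left 6 genes to test, of which 3 were called with WT, 4 with ΔGS, B2M among them, and 3 with ΔADAM TYRO3. Without the replicate block, and with a term for experiment 1, the calls numbered 1 for WT, 2 for ΔGS and 2 for ΔADAM, and 0, 0 and 0 with no batch term. With WT TYRO3, 1 gene was called in experiments 2 and 3 alone and 1 when the model held only the groups compared, both with fewer libraries. The calls of HLA-B, TAP1, PSMB8 and CD274 with WT TYRO3 were lost in both settings. Leaving out each library in turn gave 2 to 5 calls with WT, 4 to 8 with ΔGS and 4 to 6 with ΔADAM TYRO3: 2 without the WT library of experiment 1 or 2, and 8 without the GFP library of experiment 3. By CPM, HLA-B ranked 6 and TAP1 5 in the GFP libraries, and by TPM of all transcripts PSMB8 ranked 5, TAP1 6 and HLA-B 7.

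Differences near 0 that were not called changed sign. Between ΔGS and ΔADAM TYRO3, HLA-B was at -0.0002 with DESeq2-type size factors, -0.0144 and -0.0070 with limma (pseudocount 1 and 0.1), and -0.1438 and -0.1519 without the replicate block (with the term for experiment 1, with no batch term). PSMB8 was at -0.0012 with those size factors and -0.0012 with DESeq2, -0.0255 and -0.0240 with limma, -0.0472 and -0.0440 without the block, and -0.0138 with only the groups compared. TAP1 was at -0.0022 and -0.0007 with limma, -0.0105 and -0.0308 without the block, -0.0944 in experiments 2 and 3, and -0.0469 with the transcripts outside the primary assembly, where PSMB9 was at -0.1332. CD274 was at -0.0761 and -0.1100 with limma. TAPBP with ΔGS TYRO3 against GFP was at -0.0032 and -0.0069 with limma and -0.1198 in experiments 2 and 3. For WT TYRO3 against the variants, PSMB9 was at 0.0122 in experiments 2 and 3, and TAPBP at -0.0015 with the transcripts outside. With each library left out, TAPBP with ΔGS against GFP ranged from -0.1117 to 0.1450. For WT against the variants the range was -0.2100 to 0.0766 for HLA-B, -0.1472 to 0.0551 for HLA-C, -0.0950 to 0.0523 for TAP2, -0.3289 to 0.0088 for PSMB8 and -1.4017 to 0.2279 for PSMB9. The highest value of each of these ranges came without the WT library of experiment 3. For ΔGS against ΔADAM the range was -0.2226 to 0.1987 for HLA-B, -0.0713 to 0.1604 for HLA-C, -0.0843 to 0.2172 for TAP1 and -0.2229 to 0.1471 for PSMB8. The cause of these changes was not tested. Low counts limit PSMB9, PSMB8 and CD274 in the shallowest GFP library.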
